A study of Mus musculus with 8 samples.

Results

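The nuclear-encoded subunits of oxidative phosphorylation are described here in neural stem and progenitor cells of the mouse cortex. Members were the protein-coding genes whose symbol in the authors' comparison table follows the naming of complex I subunits (Nduf a, b, c, s or v), succinate dehydrogenase (Sdha to Sdhd), the cytochrome bc1 complex (Uqcr genes and Cyc1), cytochrome c (Cycs), cytochrome c oxidase (Cox4 to Cox8) or ATP synthase (Atp5). The rule found 88 of the 55385 genes in the files, under 87 symbols, because Atp5o was listed under 2 gene IDs. Another 13 symbols that match the naming are processed pseudogenes and were not members. By complex, 36 members belong to complex I, 4 to complex II, 9 to complex III, 20 to complex IV and 18 to complex V, and Cycs is the carrier between complexes III and IV. Ndufa4 and Ndufa4l2 carry a complex I name and were placed with complex IV, where NDUFA4 is known to sit.

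The iKO group was Nestin-CreERT2; Ash2lf/f; tdTomato and the WT group Nestin-CreERT2; tdTomato, with 4 libraries each, so both groups carried the Cre and the red fluorescent reporter and differed by the floxed Ash2l allele. Cells were dissociated from the cortex at postnatal day 7 and sorted by flow cytometry. The Nestin promoter drives the inducible Cre in neural stem and progenitor cells. Deletion thus takes place in cells that expressed Nestin when the inducer was given, and their progeny inherit it. No source used here gives the inducer's dose or timing. ASH2L belongs to the enzyme complexes that methylate lysine 4 of histone H3, a mark of active promoters.

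Complexes I to IV of the inner mitochondrial membrane pass electrons from NADH and succinate to oxygen, and complexes I, III and IV pump protons as they do so. Complex V lets the protons back and makes ATP. Neural stem cells are known for relying largely on glycolysis, and their neuronal progeny for a greater use of oxidative phosphorylation. Most subunits are nuclear genes, translated in the cytosol and imported, and a few are encoded by the mitochondrial genome.

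Values were deposited as TPM, an abundance that allows for transcript length and for the total of each library. The depth of each library is unknown, and 16089 to 16616 genes reached 1 TPM in a library. Ash2l was at 7.13 ± 0.714 TPM in iKO, against 17.6 ± 1.33 TPM in WT (SD, n = 4 each), and no library overlapped the other group. Of 8 stem and progenitor markers 2 rose and 3 fell. Their summed level was 3195 to 3282 TPM in iKO, against 3751 to 3837 TPM in WT. These markers were thus present in every library, but lower in sum in iKO. A group's 4 libraries are called biological replicates, but no source ties a library to 1 animal, so a p-value here reflects the spread among the 8 libraries, part of which may be technical. Markers of other cells differed between the groups too, and the part of any of these cell types in the results below was not tested. The 6 astrocyte markers all fell, with sums of 2894 to 3069 TPM in iKO, against 4239 to 4377 TPM in WT. The 6 endothelial markers all rose (684 to 728 against 381 to 391 TPM), as did the 5 red blood cell markers (720 to 840 against 69.7 to 80.9 TPM). Of 6 neuroblast markers 5 rose and 1 fell (1557 to 1601 against 1407 to 1438 TPM), and the 6 microglial markers all fell (421 to 442 against 496 to 526 TPM). A sex-linked score, the mean log2(TPM + 1) of the Y-linked genes Ddx3y, Eif2s3y, Kdm5d and Uty less that of Xist, also separated the groups, at -0.82 to -0.26 in iKO and 0.57 to 1.01 in WT. Its part and that of the genotype cannot be told apart in these libraries. In RNA from bulk cells, fewer cells of a type and less RNA per cell cannot be told apart.

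The promoter windows of the 3 members that fell most and of the 2 strongest rises with an entry in the RefSeq promoter table (GRCm38.p6) are shown, since the members differed so widely from each other. Each window holds 300 bases, 5′ to 3′ on the gene's strand, mostly upstream of the annotated start, and all 5 genes lie on the minus strand. Capitals mark matches, on either strand, to a core motif of NRF1 (GCATGCG), of the ETS factors including GABPA (CCGGAAG) or of YY1 (ATGGCGG), factors with known roles at nuclear genes for mitochondrial proteins. The windows are chr5:108434350-108434649 for Atp5k, chr5:145191492-145191791 for Atp5j2, chr7:30626065-30626364 for Cox6b1, chr15:102670998-102671297 for Atp5g2 and chr13:114388045-114388344 for Ndufs4.
Atp5k: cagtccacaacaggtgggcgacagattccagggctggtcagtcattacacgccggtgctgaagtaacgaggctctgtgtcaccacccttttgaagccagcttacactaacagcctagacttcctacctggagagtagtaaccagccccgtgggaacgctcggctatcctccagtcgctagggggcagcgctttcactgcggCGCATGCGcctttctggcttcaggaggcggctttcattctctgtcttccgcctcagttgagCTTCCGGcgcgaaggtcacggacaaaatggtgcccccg
Atp5j2: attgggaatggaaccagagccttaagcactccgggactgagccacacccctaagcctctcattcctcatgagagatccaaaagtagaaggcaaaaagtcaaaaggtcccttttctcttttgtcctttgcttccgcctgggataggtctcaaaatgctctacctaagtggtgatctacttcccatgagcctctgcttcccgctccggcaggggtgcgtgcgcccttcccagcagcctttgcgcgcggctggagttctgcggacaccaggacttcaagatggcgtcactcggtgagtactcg
Cox6b1: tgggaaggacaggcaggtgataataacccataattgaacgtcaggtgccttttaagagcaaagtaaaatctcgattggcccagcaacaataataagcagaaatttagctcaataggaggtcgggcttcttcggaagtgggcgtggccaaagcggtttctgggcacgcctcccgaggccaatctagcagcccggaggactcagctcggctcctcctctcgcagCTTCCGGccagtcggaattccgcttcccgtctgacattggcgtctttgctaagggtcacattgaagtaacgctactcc
Atp5g2: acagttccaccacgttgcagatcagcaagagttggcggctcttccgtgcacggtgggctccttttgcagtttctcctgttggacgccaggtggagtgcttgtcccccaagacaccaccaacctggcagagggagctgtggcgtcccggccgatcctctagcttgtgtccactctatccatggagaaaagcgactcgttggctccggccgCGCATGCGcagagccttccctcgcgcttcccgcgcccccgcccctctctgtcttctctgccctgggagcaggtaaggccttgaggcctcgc
Ndufs4: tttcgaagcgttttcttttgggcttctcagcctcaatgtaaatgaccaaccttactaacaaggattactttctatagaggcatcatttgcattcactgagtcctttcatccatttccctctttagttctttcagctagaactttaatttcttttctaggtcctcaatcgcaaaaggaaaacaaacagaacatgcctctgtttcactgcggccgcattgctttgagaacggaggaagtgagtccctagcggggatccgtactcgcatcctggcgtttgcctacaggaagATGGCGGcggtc
Atp5k held the NRF1 and the ETS motif, Cox6b1 the ETS motif, Atp5g2 the NRF1 motif and Ndufs4 the YY1 motif, and Atp5j2 held none of them. Both NRF1 motifs matched on the 2 strands at once, in overlapping letters, and no other matches overlapped in the windows shown. Of the 70 members with a window, 17.1% held the NRF1 motif, 24.3% the ETS motif and 14.3% the YY1 motif. Over all 27025 genes in the table the shares were 4.01%, 9.93% and 4.69%. The ETS motif was in 6 of the 26 members with a window that rose, in 9 of the 23 that fell and in 2 of the 19 that were not called. The NRF1 motif was in 4, 3 and 5 of them and the YY1 motif in 4, 3 and 3.

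Of the 88 members, 84 reached 1 TPM in at least 4 libraries and were tested. With limma on log2(TPM + 1), at a Benjamini-Hochberg adjusted p under 0.05 over all genes, 35 members rose in iKO, 26 fell and 23 were not called. Over all 16413 genes tested, 20.7% rose and 31.9% fell. The libraries of the groups did not overlap for 57 members, beside 49.2% of all genes. The median log2 fold change (iKO minus WT) of the members was 0.12, beside -0.06 for all genes, and 63.1% of members against 41.9% of all genes had a positive value. The members were also spread more widely, with an SD of the log2 fold changes of 0.822 against 0.503, from -3.77 for Atp5k to 1.16 for Cox6a2. A fall of 1 log2 unit or more was called for 7 members, beside 2.22% of all genes, and a rise of that size for 2, beside 1.19%. Both rises carry a limit given with their values: Cox6a2 passed the filter through iKO alone, and Atp5g2 has an identical copy and lost its call when any 1 of 3 libraries was left out. With trimmed mean of M values scaling, 45 members rose and 19 fell, which moved the share of higher calls among the members from 57.4% to 70.3%. Over all called genes that share moved from 39.3% to 51.1%. With the sex-linked score as a covariate, which overlaps with the group itself, 9 members rose and 3 fell, and 423 of all genes changed, against 8629 without it. In the authors' deposited table, of the tested members, 45 were higher and 22 lower, beside 27.9% and 26.1% of all genes.

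**Figure D1:**
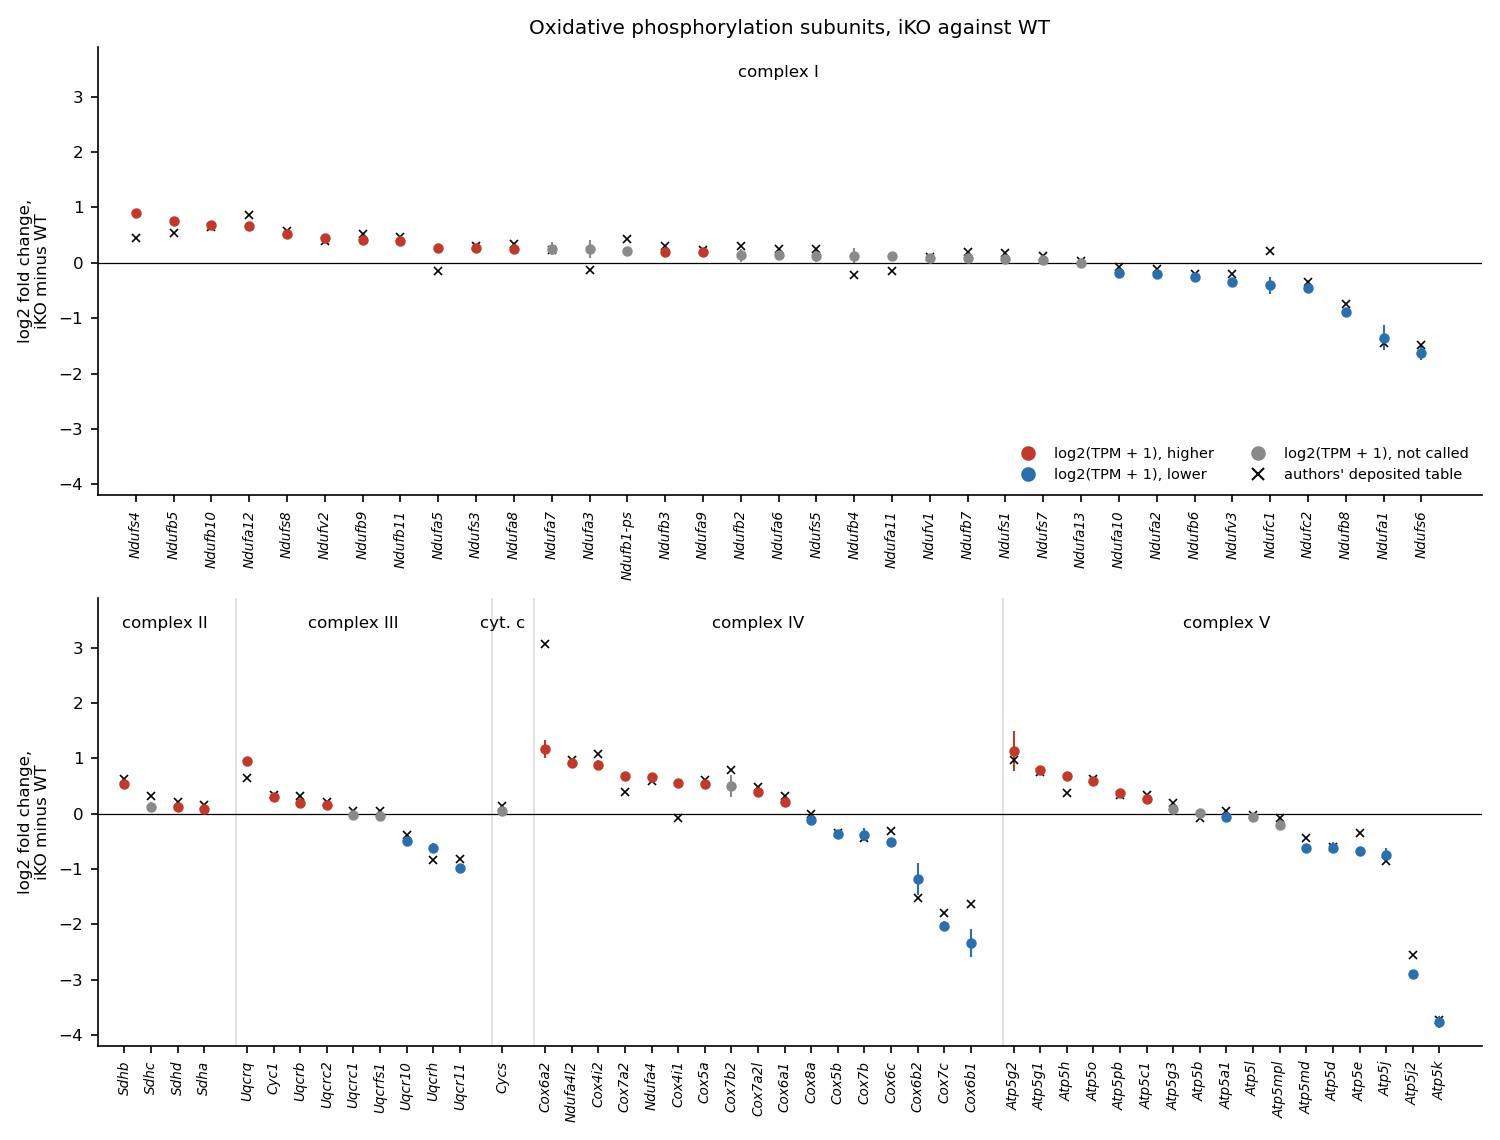
Log2 fold change (iKO minus WT) of the tested members, 1 left out, ordered within each complex, with circles for the fit on log2(TPM + 1) of 4 against 4 libraries (bars, SE) coloured by call and crosses for the authors' deposited table. Complexes IV and V hold the widest ranges, from -2.33 to 1.16 and from -3.77 to 1.13.

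The 4 untested members were low. Cox7a1, a muscle isoform in complex IV, was at 0 TPM in all iKO libraries and at 1.03, 1.06, 1.06 and 0 TPM in WT. Cox8b, Cox8c and the second Atp5o entry were at 0 in all 8 libraries. None of the 4 was above 0 in enough libraries for the permutation test planned for low members.

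Summed over its members, every complex was higher in iKO, and for complexes I to V no iKO library overlapped a WT library. Together the members made up 2.05% of all TPM in iKO and 1.87% in WT, or 20469 ± 129 against 18651 ± 230 TPM (SD, n = 4 each). Complex I summed to 5505 ± 37.7 TPM in iKO, against 4994 ± 64.8 TPM in WT. The sums were 959 ± 13.0 against 845 ± 9.80 TPM for complex II and 2830 ± 15.1 against 2529 ± 31.0 TPM for complex III. Complex IV differed most, with 4521 ± 38.5 against 3954 ± 88.1 TPM, a ratio of 1.14, and complex V least, with 6635 ± 74.2 against 6309 ± 92.6 TPM, a ratio of 1.05. The sums are carried by the abundant members. Much of the difference in complex IV lay in Cox4i1, at 999.8 ± 35.5 TPM in iKO, against 681.2 ± 26.0 TPM in WT. The authors' deposited table gave Cox4i1 a log2 fold change of -0.07 and did not call it, so the ranking of complex IV is uncertain.

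**Figure D2:**
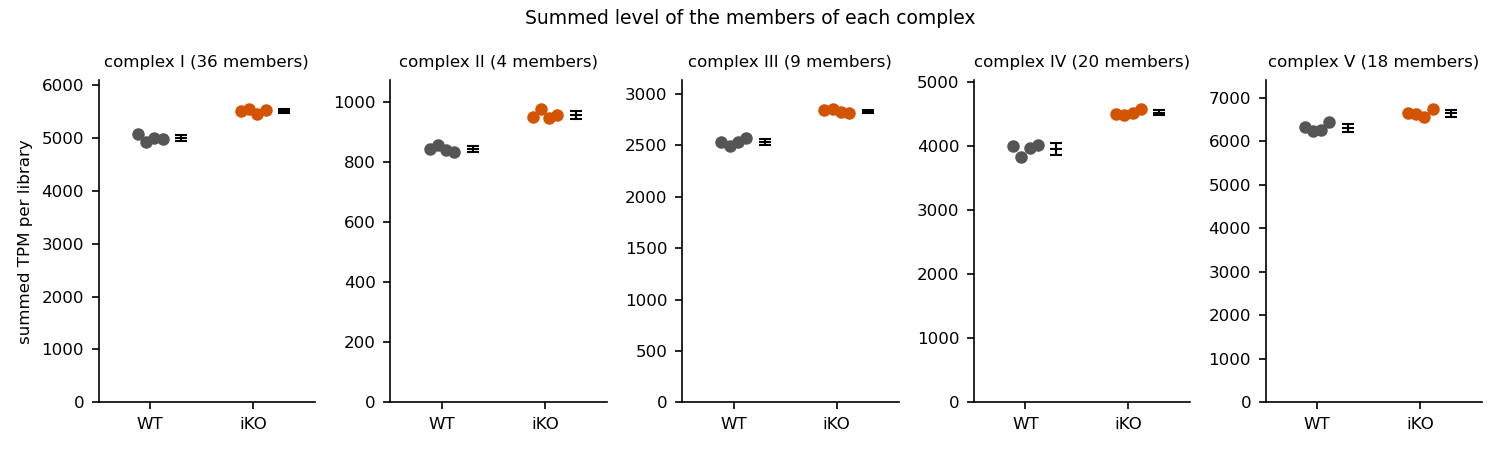
Summed TPM of the members of each complex in each library (points), with the mean and SD of 4 libraries per group at the right of each group; the axes start at 0. The iKO libraries lie above the WT libraries in all 5 panels.

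The counts of each complex stand beside 20.7% of all genes tested that rose and 31.9% that fell. Complex I oxidises NADH. Of its 36 tested members 13 rose, 9 fell and 14 were not called, with a median log2 fold change of 0.13. The median was 0.20 with trimmed mean of M values scaling, also 0.20 in the authors' deposited table, and 0.031 with the sex-linked score as a covariate. The 7 core subunits, which carry the flavin, the iron-sulfur clusters and the ubiquinone site, held no fall: 3 rose (Ndufs8, Ndufv2 and Ndufs3, by 0.52, 0.44 and 0.26) and 4 were not called. The 29 accessory subunits split into 10 rises, 9 falls and 10 without a call.

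Ndufs6, a zinc-binding accessory subunit added late in assembly, was at 25.1, 17.9, 24.6 and 25.1 TPM in iKO and at 83.7, 61.7, 67.9 and 79.9 TPM in WT. Every iKO library was below every WT library, and the log2 fold change was -1.62 ± 0.13 (SE, adjusted p = 1.16e-05). Ndufa1, an X-linked subunit of the membrane arm, was at 5.64, 4.99, 3.52 and 4.92 TPM in iKO and at 12.4, 13.5, 21.9 and 9.22 TPM in WT. The groups were again apart, though the WT libraries varied among themselves, and the log2 fold change was -1.36 ± 0.23 (adjusted p = 0.00105). Ndufb8, also of the membrane arm, was at 56.7, 65.8, 58.6 and 56.0 TPM in iKO and at 115, 102, 106 and 122 TPM in WT, a log2 fold change of -0.90 ± 0.07 (adjusted p = 7.76e-06). Ndufc2, among the most abundant accessory subunits, fell from 587 ± 22.1 to 430.4 ± 12.3 TPM.

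The strongest rise of complex I was Ndufs4, an accessory subunit whose loss causes a mouse model of Leigh syndrome. Its level was 294, 288, 295 and 283 TPM in iKO and 158, 162, 159 and 141 TPM in WT. The groups were far apart and the log2 fold change was 0.90 ± 0.04 (adjusted p = 4.41e-07), while the authors' deposited table gave 0.44. Ndufb5 rose by 0.76 and Ndufb10 by 0.68, both subunits of the membrane arm. Exons of Ndufb5 overlap those of Mrpl47 on the other strand over 616 nt, and 28 members in all have an opposite-strand overlap. The sources do not say whether strand was used in counting. Mrpl47 was at 12.3 TPM in iKO, against 11.5 TPM in WT.

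Ndufc1, which binds Ndufc2 in the complex, was called in opposite directions. Its level was 95.5, 108, 103 and 138 TPM in iKO and 176, 154, 151 and 112 TPM in WT, so the groups overlapped, and the log2 fold change was -0.41 ± 0.15 (adjusted p = 0.0468). Without any 1 of iKO replicates 1 to 3 or WT replicates 1 to 3 this call was lost (adjusted p = 0.0903 to 0.113). The authors' deposited table gave 0.21 (adjusted p = 0.0371).

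Complex II, succinate dehydrogenase, also belongs to the citric acid cycle and is made of nuclear-encoded subunits only. Of its 4 members 3 rose and none fell, and Sdhc, a membrane anchor, was not called by limma (log2 fold change 0.13) but was higher in the authors' deposited table (0.33). Sdhb, the iron-sulfur subunit, was at 187, 187, 183 and 176 TPM in iKO and at 121, 128, 129 and 124 TPM in WT. No libraries overlapped, and the log2 fold change was 0.54 ± 0.03 (adjusted p = 1.04e-06). Sdhd, the other anchor, and Sdha, the flavoprotein, rose by 0.12 and 0.08. The median of the 4 was 0.12, though 0.19 with trimmed mean of M values scaling, 0.20 with the length trend removed and 0.27 in the authors' deposited table.

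Complex III passes electrons from ubiquinol to cytochrome c. Of 9 members 4 rose, 3 fell and 2 were not called. The median of -0.02 turns to 0.05 with trimmed mean of M values scaling and in the authors' deposited table. Cyc1, the cytochrome c1 that hands electrons on, rose from 714 ± 8.41 to 880.1 ± 25.3 TPM, and the core protein Uqcrc2 rose by 0.15. Uqcrc1, the other core protein, and Uqcrfs1, the Rieske iron-sulfur protein, were not called, at log2 fold changes of -0.02 and -0.04.

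The 5 small subunits of complex III all changed, but not together. Uqcrq, which sits next to the cytochrome b subunit, was at 403, 392, 398 and 366 TPM in iKO and at 200.2, 194, 206 and 205 TPM in WT, a log2 fold change of 0.95 ± 0.03 (adjusted p = 9.06e-08). Uqcr11, which encodes the shortest protein of these 5, was at 50.6, 50.1, 49.0 and 56.5 TPM in iKO and at 104, 101, 94.4 and 112 TPM in WT, a log2 fold change of -0.98 ± 0.06 (adjusted p = 2.56e-06). Each group stood clear of the other in both genes, in opposite directions. Uqcrh, the hinge protein near cytochrome c1, fell by 0.62 and Uqcr10 fell by 0.49, while Uqcrb rose by 0.19. Uqcrq and Uqcr11 are both short, with transcripts of 405 and 445 nt. Cycs itself was at 19.5 ± 1.26 TPM in iKO, against 19.0 ± 1.92 TPM in WT and was not called.

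Complex IV reduces oxygen. Of its 17 tested members 9 rose, 7 fell and 1 was not called, and the median log2 fold change was 0.40, though 0.24 with a pseudocount of 5 and 0.21 with a filter at a mean of 5 TPM. Without any 1 iKO library Cox6a2, counted here among the rises, did not pass the filter, and the median was 0.30 to 0.31. Without a WT library it was 0.37 to 0.41.

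Cox6b1, the subunit that faces the intermembrane space between the monomers of the dimer, was at 26.7, 67.4, 48.1 and 33.2 TPM in iKO and at 213, 219.7, 180.3 and 239 TPM in WT. All iKO libraries were far below WT but differed among themselves by more than the WT libraries did in proportion, and the log2 fold change was -2.33 ± 0.25 (adjusted p = 6.84e-05). The authors' deposited table gave -1.63. Cox7c was at 17.1, 18.2, 21.1 and 15.5 TPM in iKO and at 74.99, 67.8, 82.4 and 78.3 TPM in WT, a log2 fold change of -2.02 ± 0.09 (adjusted p = 3.93e-07). The iKO libraries were close together and well below WT. Cox6c fell by 0.52, Cox5b fell by 0.36 and Cox8a fell by 0.12, and the authors' deposited table did not call Cox8a (-0.01). Cox7b, an X-linked subunit, fell by 0.38 with overlapping groups, and its call was lost without any 1 of iKO replicates 1 to 3, WT replicate 1 or WT replicate 2 (adjusted p = 0.0530 to 0.0581). It was also lost with trimmed mean of M values scaling, with quantile normalization and with the sex-linked score as a covariate, where the log2 fold change of Cox7b was 0.078 (adjusted p = 0.0502, 0.0527 and 0.952).

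Among the rises, Cox4i1, the ubiquitous form of the largest nuclear-encoded subunit, was at 997, 951, 1028 and 1023 TPM in iKO and at 698, 644, 701 and 681 TPM in WT. No libraries overlapped and the log2 fold change was 0.55 ± 0.03 (adjusted p = 2e-06), yet the authors' deposited table gave -0.07 and did not call it. Exons of Cox4i1 overlap those of Emc8 on the other strand over 154 nt, and Emc8 was at 39.6 TPM in iKO, against 49.6 TPM in WT. Cox7a2 rose by 0.69, Cox5a by 0.54 and Ndufa4 by 0.66. Cox7a2l, which links complexes III and IV in supercomplexes, rose by 0.40, and Cox6a1, the most abundant member of complex IV, by 0.21.

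Isoforms gave a further contrast. Ndufa4l2, a relative of Ndufa4 known to be induced by hypoxia and in mouse brain found in pericytes, was at 63.1, 63.0, 67.6 and 68.1 TPM in iKO and at 33.9, 31.4, 35.4 and 37.1 TPM in WT (log2 fold change 0.91 ± 0.05, adjusted p = 1.94e-06). Cox4i2, the oxygen-responsive form of Cox4i1 and another pericyte gene of the brain, was at 8.97, 9.87, 11.5 and 11.1 TPM in iKO and at 4.81, 6.14, 4.89 and 4.86 TPM in WT (0.88 ± 0.10, adjusted p = 8.26e-05). For both genes each iKO library exceeded each WT library. Of 7 pericyte markers, a list written after these values were seen, 4 rose and 3 fell, and their sum was 990 to 1040 TPM in iKO, against 849 to 901 TPM in WT; their part in the rise of both genes was not tested. As a share of its common isoform, Ndufa4l2 was 17.6% to 20.7% of Ndufa4 in iKO and 15.3% to 17.1% in WT, and Cox4i2 was 0.900% to 1.12% of Cox4i1 in iKO and 0.690% to 0.953% in WT.

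Cox6a2, the heart and skeletal muscle form of Cox6a1, was near the filter, at 1.48, 1.75, 1.97 and 1.48 TPM in iKO and at 0, 0, 0.283 and 0.563 TPM in WT. Its log2 fold change was 1.16 ± 0.16 on the log2(TPM + 1) scale (adjusted p = 0.000379), and no libraries overlapped. It passed the filter through iKO alone. Of 5 muscle markers (Myh11, Acta2, Actc1, Myl2 and Ckm) 1 rose and 1 fell. Their sum was 15.9 to 21.5 TPM in iKO, against 19.5 to 22.0 TPM in WT, and their part in the rise of Cox6a2 was not tested. Cox6b2, the testis form of Cox6b1, fell by 1.18 from 9.01 ± 3.53 to 3.30 ± 1.08 TPM (adjusted p = 0.00737). The mean normalized signal of Cox6b2 in the authors' deposited table was low, at 12.5. With the sex-linked score as a covariate its log2 fold change was 0.999 and was not called (adjusted p = 0.607). Cox7b2, the testis form of Cox7b, was at 3.37 ± 0.760 TPM in iKO, against 2.12 ± 0.772 TPM in WT and was not called.

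Complex V, ATP synthase, held the strongest falls of all members. Of its 17 tested members 6 rose, 7 fell and 4 were not called. Its median of -0.05 turns to 0.02 with trimmed mean of M values scaling and to 0.04 with the length trend removed, and was -0.12 with quantile normalization. In the catalytic F1 head, Atp5b, the beta subunit and the most abundant member of the set, was at 2881, 2904, 2832 and 2980 TPM in iKO and at 2864, 2854, 2848 and 2972 TPM in WT. The groups overlapped and Atp5b was not called (0.01 ± 0.02, adjusted p = 0.76). The authors' deposited table called it lower, at -0.08 (adjusted p = 1.15e-06). The alpha subunit Atp5a1 fell by 0.05 on TPM (adjusted p = 0.018, or 0.0516 without WT replicate 3) and was higher by 0.05 in the authors' deposited table, the gamma subunit Atp5c1 rose by 0.27, and the small subunits delta and epsilon, Atp5d and Atp5e, fell by 0.62 and 0.67.

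The small membrane subunits that help ATP synthase to dimerise and shape the cristae were lower in sum. Of 5, 3 fell and 2 were not called, and their summed level was 453 ± 27.8 TPM in iKO, against 859 ± 29.8 TPM in WT, with no overlap. Atp5k, subunit e, was at 14.1, 12.1, 15.1 and 12.9 TPM in iKO and at 225, 163, 184 and 221 TPM in WT. Every WT library was more than 10 times as high as every iKO library, the log2 fold change was -3.77 ± 0.11 (adjusted p = 3.37e-08), and the authors' deposited table gave -3.72. Atp5j2, subunit f, was at 14.9, 14.3, 13.7 and 14.8 TPM in iKO and at 112, 98.8, 119.6 and 125 TPM in WT, a log2 fold change of -2.90 ± 0.07 (adjusted p = 1.21e-08). Its iKO libraries were close together and none came near a WT library. Atp5md, also known as DAPIT, fell by 0.62. Atp5mpl and Atp5l, subunit g, were not called, at -0.21 and -0.06.

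**Figure D3:**
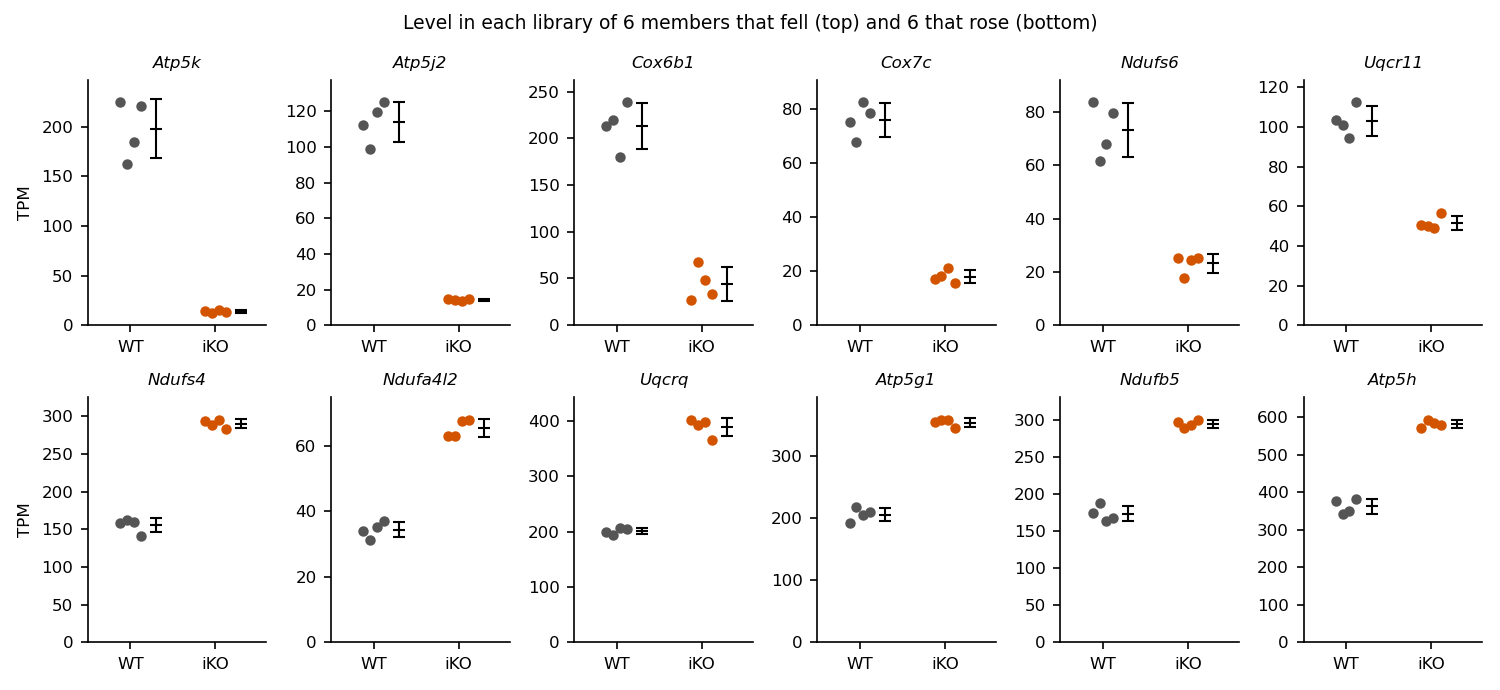
TPM in each WT and iKO library (points) of 6 members that fell and 6 that rose, with the mean and SD of 4 libraries at the right of each group; axes start at 0. In each of the 12 genes the groups do not overlap, and Atp5k lies between 12.1 and 15.1 TPM in iKO and between 163 and 225 TPM in WT.

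The peripheral stalk, which holds the F1 head in place, and the c-ring, the rotor, held rises. Of 4 tested stalk subunits 3 rose: Atp5h by 0.68, Atp5o by 0.60 and Atp5pb by 0.37. The fourth, Atp5j, was at 14.2, 17.8, 14.0 and 15.5 TPM in iKO and at 22.1, 28.0, 23.7 and 32.8 TPM in WT, with a log2 fold change of -0.75 ± 0.12 (adjusted p = 0.000978). Atp5j was lower in every iKO library than in any WT library. Its exons overlap 397 nt of Gabpa, the ETS factor, on the other strand. Gabpa was at 27.2 TPM in iKO, against 23.1 TPM in WT. Reads in the overlap could come from either gene, so the value of Atp5j is uncertain.

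The c-ring is one protein made from 3 genes that differ in their import sequence. Atp5g1 was at 355, 359, 357 and 344 TPM in iKO and at 191, 217, 205 and 209 TPM in WT, with a log2 fold change of 0.78 ± 0.04 (adjusted p = 4.54e-07). Atp5g2 was at 102, 54.9, 45.9 and 169 TPM in iKO and at 40.3, 32.8, 38.7 and 34.9 TPM in WT, with a log2 fold change of 1.13 ± 0.36 (adjusted p = 0.0259), and Atp5g3 was not called (0.09). The Atp5g1 libraries were tight, whereas the Atp5g2 libraries of iKO ranged widely above WT. Without iKO replicate 4 the iKO mean of Atp5g2 was 67.4 TPM, and its call was lost without iKO replicate 1, WT replicate 2 or WT replicate 4 (adjusted p = 0.0589 to 0.0651).

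Some members have near-identical copies in the genome, here a match of at least 95% identity over at least 50% of the shorter transcript, and reads could be shared between them. Such a copy was found for 28 members. Atp5g2 matched the transcribed processed pseudogene Gm10175 at 100% identity over 441 nt, and Gm10175 itself was at 325 ± 66.1 TPM in iKO, against 179 ± 37.6 TPM in WT, so the value of Atp5g2 is uncertain. With its copies added, the fold change of Atp5g2 was 0.83. Ndufs5 was not called, at 62.8 ± 7.22 TPM in iKO, against 57.8 ± 9.17 TPM in WT, but its pseudogene Ndufs5-ps, 99.4% identical over 319 nt, was at 122 ± 9.69 TPM in iKO, against 1.68 ± 1.12 TPM in WT. Their sum had a log2 fold change of 1.63. Ndufa12, which rose by 0.67, has a copy, Gm15920, at 0.596 ± 1.19 TPM in iKO, against 29.6 ± 6.69 TPM in WT, and the sum had a log2 fold change of 0.42. Atp5l and its copies summed to a log2 fold change of 0.34, beside -0.06 for Atp5l alone. Cycs and its copies, of which Gm10053 is labelled protein-coding, summed to 0.37, beside 0.04 for Cycs alone. The copies of Atp5k and Ndufs6 were at 0 in all libraries, and those of Cox7c held 7.26% of the sum.

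Short transcripts held all the large falls. The 7 members that fell by 1 log2 unit or more have transcripts under 1000 nt, as do 56 of the 84 tested members. Falls of that size were called for 7.12% of the other tested protein-coding genes under 1000 nt and for 1.20% of those of 1000 nt or more. Under 500 nt, 2 of 11 members rose and 7 fell, beside 24.7% and 24.7% of the other tested protein-coding genes of that length. From 500 to 999 nt, 19 of 45 rose and 14 fell, beside 45.2% and 20.2%, and from 1000 to 1999 nt 13 of 22 rose and 3 fell, beside 33.0% and 26.9%. Of the 6 members of 2000 nt or more, 1 rose and 2 fell, beside 16.7% and 36.2%. Short transcripts of other protein-coding genes were spread widely too, with an SD of the log2 fold change of 0.806 under 500 nt and 0.352 from 2000 nt. Spearman's rho between length and log2 fold change was 0.17 over the 84 members and -0.15 over 13601 protein-coding genes; these are descriptions across genes, which share libraries and are not independent.

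**Figure D4:**
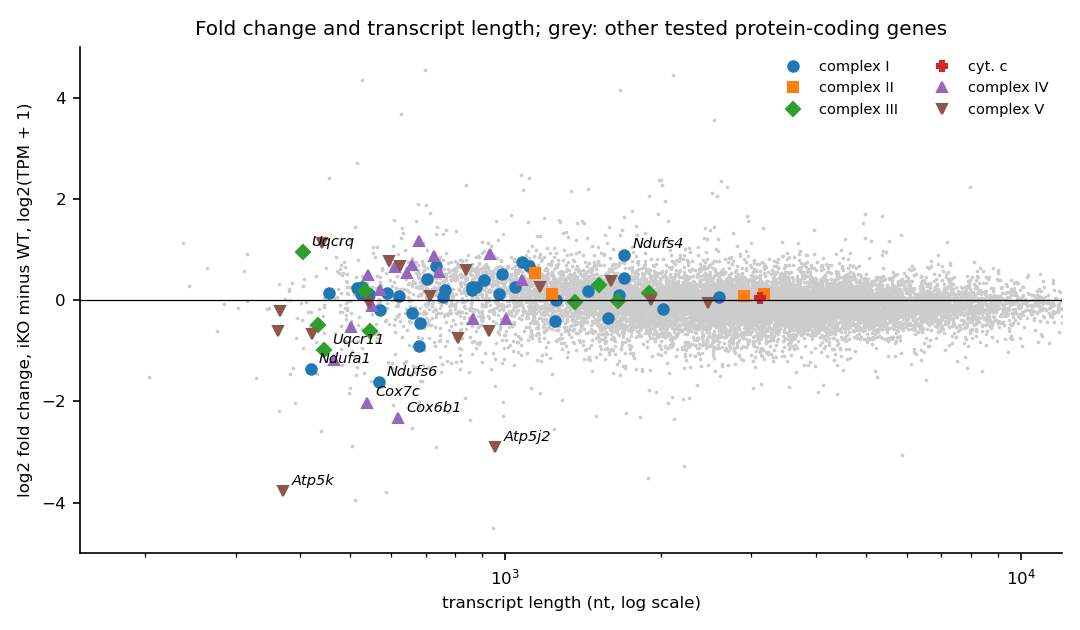
Log2 fold change (iKO minus WT, log2(TPM + 1)) against transcript length on a log axis for the tested members by complex, 1 left out, over the other tested protein-coding genes in grey. The 7 members at -1 or below lie under 1000 nt, and members of 1000 nt or more lie between -0.41 and 0.90.

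Protein length split the members further, with limits chosen after the values were seen. Of 24 members that encode fewer than 100 residues, 16 fell and 5 rose, with a median log2 fold change of -0.45. Among 291 other tested protein-coding genes of that size, 20.3% fell and 40.9% rose. From 100 to 199 residues 7 of 38 members fell and 19 rose, beside 21.4% and 40.5% of the others. From 200 residues 3 of 21 fell and 11 rose, beside 34.9% and 19.3%. Of the 7 falls of 1 log2 unit or more, 6 encode fewer than 100 residues; falls of that size were called for 7.22% of the other genes under 100 residues, 2.36% from 100 to 199 and 1.36% from 200. The median of the smallest members in the authors' deposited table was -0.34.

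Both sources were compared for each member. They called 55 members in common, 53 of them in the same direction and 2, Ndufc1 and Atp5a1, in opposite directions. Of the 35 rises on TPM 33 were also called in the authors' deposited table, and of the 26 falls 20. Another 12 members, among them Atp5b, Cycs, Atp5g3 and Uqcrc1, were called only in the authors' deposited table, and 6 only on TPM. The sources differed by more than 0.25 log2 units for 16 of 84 members (19.0%), beside 13.5% of all genes. The median difference, TPM less deposited, was -0.075 over the members and -0.070 over all genes. The causes of these differences were not tested.

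Genes around the complexes were counted in the same fit, where 20.7% of all genes tested rose and 31.9% fell. Of 12 tested mitochondrially encoded subunits 7 rose and 2 fell, with a median of 0.10. The gene mt-Atp8, for a membrane subunit of complex V, was at 280.4 ± 24.95 TPM in iKO, against 806 ± 59.2 TPM in WT, a log2 fold change of -1.52 ± 0.07 (adjusted p = 4.66e-07). Its annotated transcript has only 204 nt, and fold changes of short transcripts were spread widely, as given above. Overlaps with other genes were searched for the members only, so the fall of mt-Atp8 is uncertain. The largest rise of this list was that of mt-Nd2, by 0.38. Of 45 assembly factors 18 rose and 5 fell, with a median of 0.11 and log2 fold changes from -0.80 to 1.04. Among them the complex IV factors Coa6, Coa3 and Cox19 rose by 1.04, 0.87 and 0.64.

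Of 78 mitochondrial ribosomal proteins, which translate the mitochondrially encoded subunits, 53 rose and 7 fell, with a median of 0.29. Their log2 fold changes ran from -1.25 to 0.75. Mrps11 rose by 0.59 and Mrpl36 by 0.54. Of 18 citric acid cycle enzymes 7 rose and 4 fell, with a median of 0.01, and Idh2, the NADP-dependent isocitrate dehydrogenase, fell by 1.04 from 132 ± 4.17 to 63.6 ± 2.16 TPM. Of 18 glycolytic enzymes 4 rose and 9 fell, with a median of -0.17, among them Eno1 (-0.70), Ldhb (-0.54) and Aldoc (-0.49), the last also one of the astrocyte markers. Of 16 regulators of mitochondrial genes 1 rose and 2 fell. Ppargc1a, a coactivator that promotes mitochondrial biogenesis, fell by 0.58 and Yy1 fell by 0.28, while the nuclear receptor gene Esrra rose by 0.30.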

How the data were processed

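RNA was measured in 4 iKO and 4 WT libraries, grouped by sample title. Per the labels' protocols, Smart-Seq2 cDNA was sequenced on an Illumina instrument. The authors deposited TPM per gene and library, and a comparison table that, per the file headers, gives a mean normalized signal, a log2 fold change, a test score and a p-value. For the aligner, quantifier, build and strand setting: not given in the sources used here. TPM hold no depth, so no counting interval can be given.

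Genes that reached 1 TPM in 4 or more libraries were tested with limma 3.58.1 (R 4.3.3, statmod 1.5.0; trend, robust) on log2(TPM + 1), which understates changes of low genes. Calls used a two-sided Benjamini-Hochberg adjusted p under 0.05 over all genes. The procedure was tested on simulated data. The results were recomputed with a replicate block, without each library in turn, with other pseudocounts (0.1, 5), filters, scalings and gene sets, with a length trend removed, with a sex-linked covariate, and from the deposited comparison. Transcript and protein lengths, overlaps and copies (blastn 2.17.0) came from GENCODE M21, which held 99.6% of the gene IDs, with the shortest best-supported principal transcript per gene. Promoters came from RefSeq (70 members matched). Figures used Python 3.11.15 and matplotlib 3.10.9.

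Genes named were, per complex, up to 3 largest rises and falls without overlap and the 2 most abundant members, plus changes of at least 1 log2 unit, isoform pairs, and members called in opposite directions by the 2 sources. Other members named were chosen after their values were seen, to complete a role, copy or overlap. For each list, the named genes have small p-values. Members and lists were chosen with earlier results of these data known. The values of 1 member are not reported here.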

Additional observations from a re-analysis of the deposited data

Results flagged for a closer look

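The TPM of the reported members was searched in each group of 4 libraries, with the summed TPM of each complex and of all members, for a library that stood apart from the other 3 by most of the group's range. Of 179 groups searched, 9 (5.03%) held such a value, where chance gives about 1 in 20. Atp5b was at 2972 TPM in WT replicate 4 and at 2848 to 2864 TPM in the other WT libraries. Cox4i2 was at 6.14 TPM in WT replicate 2 and at 4.81 to 4.89 TPM in the others, still below all iKO libraries. Cox5b was at 75.01 TPM in WT replicate 2 and at 88.4 to 90.01 TPM in the others. Cox7a1 was at 0 TPM in WT replicate 4 and at 1.03 to 1.06 TPM in the others. Cycs was at 21.9 TPM in WT replicate 1 and at 17.7 to 18.3 TPM in the others. Ndufa5, an accessory subunit of complex I, was at 96.6 TPM in iKO replicate 4 and at 84.4 to 85.7 TPM in the others. Ndufb4, of its membrane arm, was at 25.4 TPM in WT replicate 1 and at 16.1 to 17.5 TPM in the others. Ndufs6 was at 17.9 TPM in iKO replicate 2 and at 24.6 to 25.1 TPM in the others, all below WT. Ndufv3 was at 95.4 TPM in iKO replicate 2 and at 103 to 105 TPM in the others.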

How the results depend on the processing

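Leaving out each library in turn gave 7808 to 8003 changed genes, 34 to 38 members higher and 22 to 26 lower, and median log2 fold changes of 0.12 to 0.15 for complex I, 0.10 to 0.16 for II, -0.024 to -0.0074 for III, 0.30 to 0.41 for IV and -0.058 to -0.011 for V. No source says that the replicate numbers pair the libraries. Correlations of deviations from the group means were -0.044 to 0.00069 for equal numbers and -0.035 to 0.043 for unequal ones. Such values cannot show whether libraries were prepared in pairs. The replicate block gave 36 members higher, 24 lower and 8097 changed genes. Under it Cox7b and Ndufc1 were not called (adjusted p = 0.0508 and 0.116). With a pseudocount of 0.1, no filter or protein-coding genes only, no count of calls moved by over 1.5 times and no complex's median by more than its replicate spread. With trimmed mean of M values scaling the medians were 0.20 for complex I, 0.19 for II, 0.054 for III and 0.019 for V, and 51.1% of called genes were higher, against 39.3% in the fit on TPM without this scaling. Quantile normalization gave -0.12 for V and a share of 49.7%. With the length trend removed, II was at 0.20 and V at 0.042, and the share was 51.5%. Complex IV was at 0.24 with a pseudocount of 5 and at 0.21 at a mean of 5 TPM. It was at 0.30 to 0.31 without any 1 iKO library, where Cox6a2 did not pass the filter. In the authors' deposited table the medians were 0.20 for I, 0.27 for II and 0.050 for III. With the sex-linked score as a covariate, 423 genes changed, 9 members rose, 3 fell and complex I was at 0.031. Cox6b2 (0.999) and Cox7b (0.078) then reversed without a call. Atp5a1 reversed to 0.019 with trimmed means, 0.044 without the length trend and 0.051 in the authors' deposited table, where Ndufc1 (0.21) and Cox4i1 (-0.075) reversed too. The causes were not tested. The unknown depth limits what can be said of Cox6a2, Cox7a1 and other members near 1 TPM.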
